A study of Mus musculus with 12 samples.

Results

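Cholesterol synthesis genes and the genes of the SREBP2 system were followed in liver RNA of mice fed a methionine- and choline-deficient (MCD) diet, which causes fatty, inflamed liver. The 28 genes were chosen by function and name from the 11791 genes of the expression table, with earlier results of these data known. They comprise 7 enzymes from acetyl-CoA to farnesyl diphosphate, 11 enzymes from squalene to cholesterol, 6 genes of the machinery that controls SREBP2, and 4 genes of cholesterol transport and esterification. All 28 were present in the table.

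The animals were C57BL/6 males aged 10 weeks that had received the diet for 3 weeks, and each library was made from liver RNA of 2 animals pooled. Each of the 3 groups had 4 pools. Control livers came from Lyzs-Cre mice, in which the lysozyme gene drives Cre in the myeloid lineage. KO livers came from Lyzs-Cre mice in which that Cre deletes p38γ and p38δ, a pair of stress-activated kinases. Anti-Ly6G livers came from Lyzs-Cre mice given an antibody to Ly6G, a surface protein of neutrophils (titles of these samples read GR1). Lyzs-Cre was thus common to all 12 pools, and no group without it was analysed. The labels also give a mitochondrial background, C57 for the controls and KO pools 1 and 2, and NZB for KO pools 3 and 4 and every anti-Ly6G pool. The antibody and the NZB label therefore cannot be told apart in the comparison of anti-Ly6G with control. The labels mention 12 males for each genotype, more than the animals in 4 pools of 2. Whether pools share litters or cages is not stated, so p-values measure the spread between pools.

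Values are the deposited signal, scaled by the corrected library size (RPM), and log2 differences are of log2(signal + 0.5). A gene is said to have risen or fallen where limma's moderated test, fitted over all 11791 genes and 12 pools, gave a Benjamini-Hochberg adjusted p under 0.05. Libraries held 13.1 to 22.3 M reads, and 3 reads, taken as the floor, corresponded to a signal of 0.125 to 0.242. The lowest member value, for Mvd, rested on 22 reads. Mapk12, which encodes p38γ, had a signal of 2.17 ± 0.397 (SD, n = 4) in control and 2.30 ± 0.694 (SD, n = 4) in KO whole liver, with a log2 difference of 0.05 and a limma adjusted p of 0.922. In whole liver this gene gave no check of a deletion restricted to myeloid cells. Mapk13 was looked for but had no single entry in the expression table, so it was not analysed here. Of 10 hepatocyte markers 9 were in the table and none was at 0 in any pool. Their summed signal was 109000 to 128000 in controls, 101000 to 128000 in KO and 103000 to 144000 in anti-Ly6G pools.

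As background, cholesterol is built from acetyl-CoA through mevalonate, isoprenoid diphosphates, squalene and lanosterol, and the liver is a main site of this synthesis. SREBP2, encoded by Srebf2, is a membrane-bound transcription factor held in the endoplasmic reticulum with its escort SCAP by the INSIG proteins while sterols are plentiful. When sterols fall, SCAP carries SREBP2 to the Golgi, where the site-1 and site-2 proteases (Mbtps1 and Mbtps2) release the fragment that enters the nucleus and activates the synthesis genes. SREBP2 binds sterol regulatory elements near the start of its targets, usually together with NF-Y, which binds CCAAT boxes, and Sp1, which binds GC boxes.

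Promoter sequences of 4 genes are shown to give examples of these elements: Hmgcs1, the member with a full sterol element match; Nsdhl, the member that rose in both comparisons with control; Acat2, which rose with the antibody and had no CCAAT box in its window; and Mbtps1, a processing gene that did not rise. They are RefSeq sequences on GRCm38.p6, 5′ to 3′ on the gene's strand, upstream of the start. Capitals mark the sterol elements TCACNCCAC and CACCCCAC, the NF-Y box CCAAT and the Sp1 box GGGCGG, each on either strand.
Hmgcs1, chr13:119690101-119690350, plus strand: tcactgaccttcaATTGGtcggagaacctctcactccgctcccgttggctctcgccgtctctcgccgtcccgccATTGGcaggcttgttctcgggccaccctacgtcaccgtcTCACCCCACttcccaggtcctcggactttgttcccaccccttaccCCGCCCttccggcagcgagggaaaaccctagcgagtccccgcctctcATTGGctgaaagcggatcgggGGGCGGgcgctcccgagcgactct
Nsdhl, chrX:72918271-72918520, plus strand: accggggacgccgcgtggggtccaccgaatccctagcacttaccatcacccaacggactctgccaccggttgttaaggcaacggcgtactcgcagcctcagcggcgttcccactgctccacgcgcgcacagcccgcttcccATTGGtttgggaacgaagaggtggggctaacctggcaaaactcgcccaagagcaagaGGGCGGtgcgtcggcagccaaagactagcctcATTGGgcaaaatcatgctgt
Acat2, chr17:12960748-12960975, minus strand: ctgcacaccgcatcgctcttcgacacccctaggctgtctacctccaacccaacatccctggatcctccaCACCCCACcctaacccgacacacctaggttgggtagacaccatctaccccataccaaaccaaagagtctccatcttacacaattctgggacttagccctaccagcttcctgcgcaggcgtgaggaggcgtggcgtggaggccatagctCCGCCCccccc
Mbtps1, chr8:119558762-119559011, minus strand: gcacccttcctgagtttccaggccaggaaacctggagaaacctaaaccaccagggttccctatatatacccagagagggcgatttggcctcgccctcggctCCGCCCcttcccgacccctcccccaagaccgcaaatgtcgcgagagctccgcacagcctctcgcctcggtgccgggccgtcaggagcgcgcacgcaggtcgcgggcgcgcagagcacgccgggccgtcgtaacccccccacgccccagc
In Hmgcs1 the sterol element began at base -137 from the start, with CCAAT matches on either side of it, and in Acat2 the shorter CACCCCAC began at -181.

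Windows from 250 bases before to 50 bases after the start were matched for 22 of the 28 genes, and Fdps, Fdft1, Sqle, Stard4, Soat2 and Scarb1 were not among them. Both strands were searched. The 22 genes had 28 windows, since some have several annotated starts, and a gene was counted when any of its windows held the motif. CCAAT was found in 18 of the 22 genes (81.8%), against 43.12% of the 8355 matched genes of the table, and the 4 without it were Acat2, Mbtps1, Mbtps2 and Scap. Counted by window it was in 18 of 28 (64.3%), against 37.62% of the 10761 windows of table genes. GGGCGG was found in 19 of 22 genes (86.4%), against 68.09% of table genes, and in 22 of 28 windows (78.6%), against 61.13%. TCACNCCAC was found in 1 (4.5%, Hmgcs1), against 1.56%, and CACCCCAC in 2 (9.1%, Acat2 and Hmgcs1), against 3.79%, where the Hmgcs1 match lay inside the longer element. The E-box CACGTG was found in 5 (22.7%: Dhcr7, Hsd17b7, Insig1, Sc5d and Scap), against 11.96%. Genes that rose with the antibody and genes that did not both carried CCAAT: Ebp, Sc5d and Hsd17b7 had it as did Cyp51, Idi1 and Nsdhl. These matches describe letters in a fixed window and were not tested as sites.

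The question put first to the data was how the cholesterol genes differed between anti-Ly6G and control livers. Nearly the whole synthesis pathway was higher in the anti-Ly6G livers: 14 of the 18 enzymes rose and none fell, with ratios of group means from 1.29 for Dhcr7 to 5.18 for Sqle. Over all 28 genes 15 rose and 1 fell, against 15.1% and 15.3% of all genes tested (30.4% in either direction). The median log2 difference was 1.19 over the 18 enzymes and 0.46 over the 28 genes, against -0.00 over all genes. All 4 anti-Ly6G pools exceeded all 4 control pools in 12 of the 18 enzymes and in 13 of the 28 genes, against 14.2% of all genes, and all lay below the controls in 1, Scarb1, against 13.1%. The 6 genes of the SREBP2 machinery did not pass the test. Anti-Ly6G with control and KO with control share the 4 control pools, so the values of each are given side by side below and the comparisons are not independent.

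**Figure D1:**
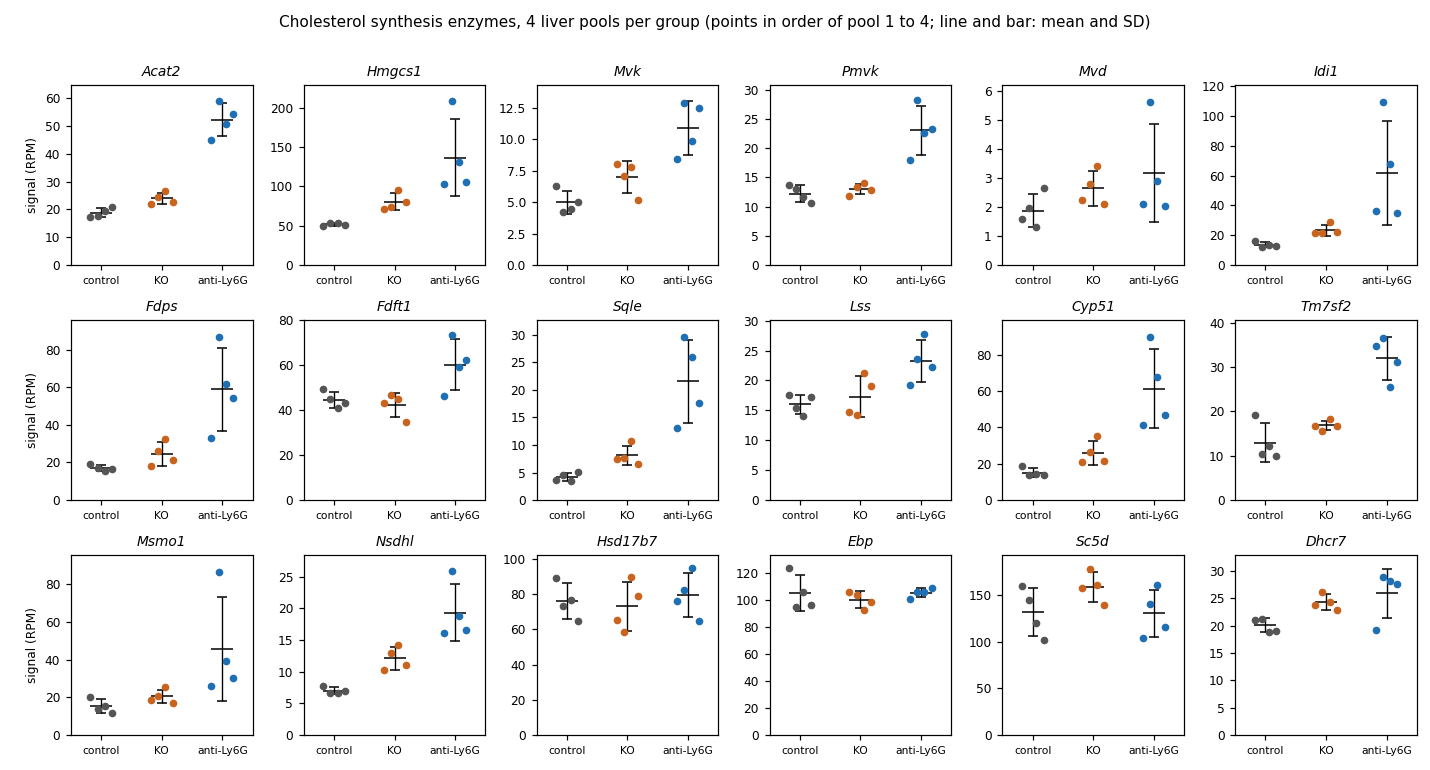
Signal (RPM, linear axis from 0) of the 18 synthesis enzymes in each of 4 liver pools per group, with lines and bars for the mean and SD. The anti-Ly6G points stand above every control point in 12 enzymes, while Hsd17b7, Ebp and Sc5d overlap in all 3 groups.

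The early mevalonate steps came first in the pathway and 6 of the 7 enzymes rose with the antibody. Acat2 (ENSMUSG00000023832, chr17:12942890-12960747 in GRCm38) encodes the cytosolic thiolase that makes acetoacetyl-CoA. Its signal was 17.4, 17.6, 19.5 and 20.8 in control pools 1 to 4, 22.1, 24.6, 26.5 and 22.7 in KO pools, and 45.0, 59.0, 50.6 and 54.4 in anti-Ly6G pools. Every KO pool lay above every control pool and every anti-Ly6G pool above both. The group means were 18.8 ± 1.63, 24 ± 2.00 and 52.3 ± 5.92 (SD, n = 4 each). The log2 difference of anti-Ly6G from control was 1.45 ± 0.09 (SE, limma adjusted p = 3.78e-07), and that of KO from control was 0.34 ± 0.09 (limma adjusted p = 0.0871). Of its 25-base words 54.5% are unique, the rest being shared mainly with Acat3, whose log2 difference from control was 0.50 in anti-Ly6G (limma adjusted p = 0.00796) and 0.22 in KO, so reads may be divided between the copies.

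Hmgcs1 encodes HMG-CoA synthase. Its signal was 49.4, 53.4, 53.3 and 50.5 in controls, 71.3, 74.2, 95.9 and 80.3 in KO, and 103, 208, 131 and 105 in anti-Ly6G pools. The 3 groups did not overlap, and anti-Ly6G pool 2 was the highest of all 12. The means were 51.6 ± 2.00, 80.4 ± 11 and 137 ± 49.0 (SD, n = 4 each), a ratio of 2.65 for anti-Ly6G (log2 1.34 ± 0.18, limma adjusted p = 0.000161) and of 1.56 for KO (log2 0.63 ± 0.18, limma adjusted p = 0.0910). In its annotation 557 exon bases lie antisense to Gm48342, and the treatment of strand in counting is not given in the sources used here.

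Both kinases of the mevalonate steps rose with the antibody. Mvk, mevalonate kinase, had means of 5.0 ± 0.935 in controls, 7.03 ± 1.27 in KO and 10.9 ± 2.16 in anti-Ly6G (SD, n = 4 each), and the anti-Ly6G difference was 1.05 ± 0.17 on the log2 scale (limma adjusted p = 0.000641). For Mvk the KO difference of 0.45 ± 0.17 did not pass (limma adjusted p = 0.173), and 3 of 4 KO pools lay above the highest control. Pmvk, phosphomevalonate kinase, had 12.2 ± 1.42 in controls, 13 ± 0.884 in KO and 23.1 ± 4.18 in anti-Ly6G (SD, n = 4 each), a log2 difference of 0.88 ± 0.12 for the antibody (limma adjusted p = 0.000253) and 0.09 for KO. The anti-Ly6G pools stood apart from the controls in both kinases.

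Mvd, the decarboxylase that makes isopentenyl diphosphate, was the mevalonate enzyme that did not pass the test. Its signal was 1.58, 1.95, 1.31 and 2.64 in controls, 2.25, 2.80, 3.41 and 2.10 in KO, and 2.09, 5.63, 2.91 and 2.02 in anti-Ly6G pools. The groups overlapped, with a single anti-Ly6G pool, pool 2, far above the rest. Its log2 difference was 0.56 ± 0.27 for anti-Ly6G (limma adjusted p = 0.129) and 0.42 ± 0.27 for KO (limma adjusted p = 0.419), at the lowest signal among the enzymes.

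The isoprenoid steps that follow had larger changes. Idi1, which interconverts the isopentenyl and dimethylallyl diphosphates, had a signal of 15.8, 12.4, 13.5 and 12.8 in controls, 21.2, 21.3, 29.0 and 22.1 in KO, and 36.1, 109, 67.6 and 34.7 in anti-Ly6G pools. The 3 groups did not overlap, and anti-Ly6G pool 2 stood above the other pools of its group. The ratio of means was 4.53 for anti-Ly6G (log2 1.98 ± 0.28, limma adjusted p = 0.000268) and 1.72 for KO (log2 0.75 ± 0.28, limma adjusted p = 0.173). Fdps, farnesyl diphosphate synthase, the branch point to cholesterol and to protein prenylation, had 19.3, 17.3, 15.3 and 16.3 in controls, 18.1, 26.2, 32.5 and 21.2 in KO, and 33.1, 86.8, 61.8 and 54.5 in anti-Ly6G pools. Every anti-Ly6G pool exceeded every pool of the other groups, while KO pool 1 lay within the controls. The Fdps log2 difference was 1.68 ± 0.23 for anti-Ly6G (limma adjusted p = 0.000252) and 0.48 ± 0.23 for KO (limma adjusted p = 0.289). Unique 25-base words made up 72.2% of Idi1 and 71.6% of Fdps.

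In the squalene to cholesterol part, 8 of 11 enzymes rose with the antibody. Sqle (chr15:59315077-59331192 in GRCm38), squalene epoxidase, one of the rate-limiting enzymes of the pathway, had the largest ratio among the 28 genes. Its signal was 3.66, 4.46, 3.44 and 5.09 in controls, 7.41, 7.70, 10.7 and 6.60 in KO, and 13, 29.5, 26.0 and 17.6 in anti-Ly6G pools. No pool of one group reached the range of another. The means were 4.16 ± 0.756, 8.11 ± 1.81 and 21.5 ± 7.57 (SD, n = 4 each). The log2 difference was 2.19 ± 0.22 for anti-Ly6G (limma adjusted p = 2.61e-05) and 0.88 ± 0.22, a ratio of 1.95, for KO (limma adjusted p = 0.0679).

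Cyp51, lanosterol demethylase, followed with 18.5, 14, 14.6 and 13.6 in controls, 21.1, 26.4, 35.1 and 21.4 in KO, and 41.5, 89.7, 67.6 and 46.9 in anti-Ly6G pools. Again the 3 groups did not overlap. Its ratio of means was 4.05 for anti-Ly6G (log2 1.93 ± 0.22, limma adjusted p = 6.18e-05) and 1.72 for KO (log2 0.74 ± 0.22, limma adjusted p = 0.102). Nsdhl (chrX:72918557-72958514 in GRCm38), the dehydrogenase that takes part in removing methyl groups from sterols, had 7.75, 6.61, 6.71 and 6.94 in controls, 10.2, 12.9, 14.2 and 11.1 in KO, and 16.1, 25.8, 18.8 and 16.6 in anti-Ly6G pools. The lowest KO pool lay above the highest control and the lowest anti-Ly6G pool above the highest KO. Nsdhl means were 7.00 ± 0.517, 12.1 ± 1.83 and 19.3 ± 4.51 (SD, n = 4 each), with log2 differences of 1.38 ± 0.14 for anti-Ly6G (limma adjusted p = 2.95e-05) and 0.74 ± 0.14 for KO (limma adjusted p = 0.0323).

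The other sterol enzymes that rose with the antibody did so by 1.29 to 2.97 times. Msmo1, a methylsterol monooxygenase listed in the table under its older name Sc4mol, had means of 15.3 ± 3.58 in controls, 20.6 ± 3.49 in KO and 45.5 ± 27.6 in anti-Ly6G (SD, n = 4 each), where anti-Ly6G pool 2 stood at 86.2 and the others at 26.2 to 39.3. Its log2 difference was 1.40 ± 0.29 (limma adjusted p = 0.00304). Tm7sf2, a sterol reductase, had 12.9 ± 4.38, 16.8 ± 1.04 and 32.0 ± 4.84 (SD, n = 4 each), a log2 difference of 1.32 ± 0.17 for the antibody (limma adjusted p = 0.000161), and its anti-Ly6G pools were all above the controls. Tm7sf2 shares 532 exon bases with Vps51 on the same strand, and 84.8% of its 25-base words are unique. Lss, lanosterol synthase, had 16 ± 1.59, 17.3 ± 3.41 and 23.2 ± 3.49 (SD, n = 4 each), a log2 difference of 0.52 ± 0.14 (limma adjusted p = 0.0127).

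A pair of the calls rested on overlapping pools. Fdft1, squalene synthase, had 44.6 ± 3.49 in controls, 42.4 ± 5.34 in KO and 60.2 ± 11.3 in anti-Ly6G (SD, n = 4 each), a log2 difference of 0.41 ± 0.13 (limma adjusted p = 0.0264). Anti-Ly6G pool 1, at 46.1, lay within the controls, whose highest pool stood at 49.3. Fdft1 shares 774 exon bases with Ctsb on the opposite strand, and Ctsb fell by 0.54 on the log2 scale with the antibody (limma adjusted p = 0.00137). Dhcr7, the reductase of a final step, had 20.1 ± 1.32, 24.3 ± 1.40 and 25.9 ± 4.54 (SD, n = 4 each), with a log2 difference of 0.35 ± 0.11 for anti-Ly6G (limma adjusted p = 0.0346) and 0.27 ± 0.11 for KO (limma adjusted p = 0.228). The Dhcr7 signal of anti-Ly6G pool 1, 19.2, was below 2 of the 4 controls, while all 4 KO pools were above every control. The Fdft1 call was lost without control pool 2, 3 or 4 or anti-Ly6G pool 2 or 4 (limma adjusted p of 0.0537 to 0.0824). The Dhcr7 call was lost without control pool 3 or 4 or anti-Ly6G pool 2, 3 or 4. It was also lost in voom (adjusted p = 0.0591) and in a limma fit of the 2 groups alone (adjusted p = 0.0693).

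The 4 enzymes that did not pass included 3 late sterol enzymes, which had the highest signals of the 18 in control. Ebp, the sterol isomerase, had 105 ± 13.4 in controls, 100 ± 6.05 in KO and 106 ± 3.67 in anti-Ly6G (SD, n = 4 each). Sc5d, the sterol desaturase, had 132 ± 25.9, 159 ± 15.9 and 130 ± 25.8, and Hsd17b7, the ketosterol reductase, had 75.9 ± 10.1, 73.0 ± 13.8 and 79.3 ± 12.3 (SD, n = 4 each). Their log2 differences of anti-Ly6G from control were 0.01, -0.02 and 0.06, and all 3 groups overlapped. On the scale of signal per kilobase of exon, Ebp (45.6), Sc5d (27.1) and Hsd17b7 (14.9) were the 3 highest of the 18 enzymes in control, and Sqle (0.750) was the lowest. The Sqle level per kilobase was 1.46 in KO and 3.89 in anti-Ly6G pools.

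**Figure D2:**
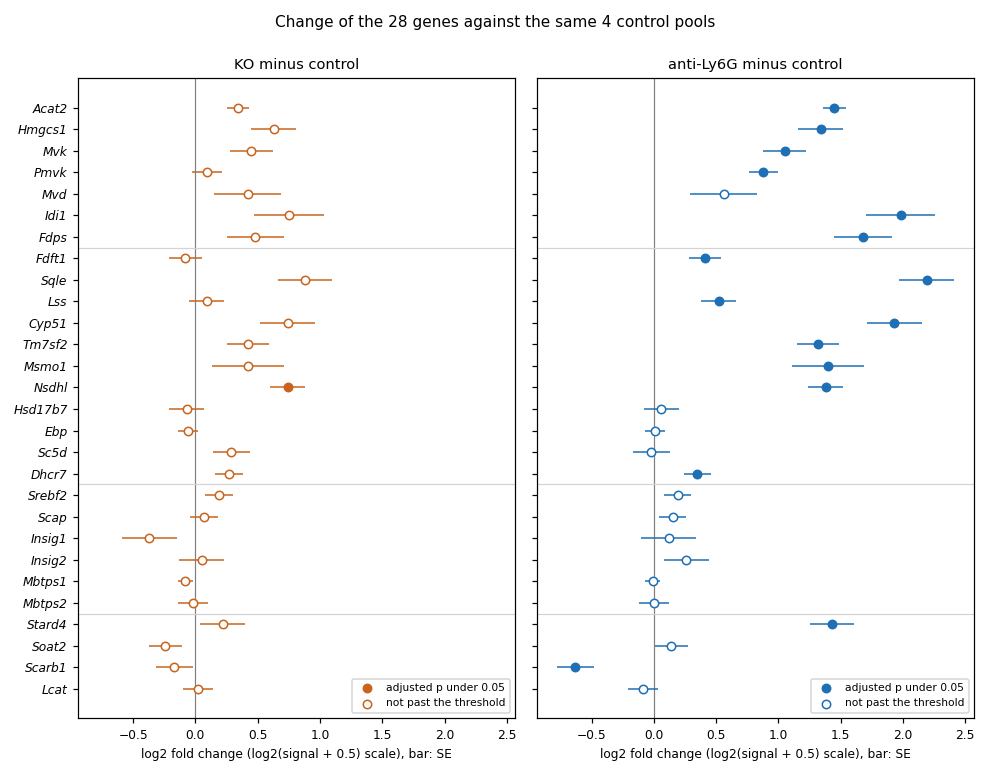
Log2 difference in signal from control for each of the 28 genes, with bars of 1 SE and filled points for limma adjusted p under 0.05, for KO and for anti-Ly6G pools (log2(signal + 0.5), 4 pools per group). The anti-Ly6G estimates lie farthest from 0 for Sqle at 2.19, Idi1 at 1.98 and Cyp51 at 1.93, and the KO estimates for these are 0.88, 0.75 and 0.74.

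In the machinery that controls SREBP2 none of the 6 genes rose or fell in any of the 3 comparisons by limma, edgeR, DESeq2 or voom. At an unadjusted limma p under 0.05 the count was 0 for KO with control, 0 for anti-Ly6G with control and 1, Insig1, for KO with anti-Ly6G. Srebf2 had 32.5, 28.8, 29.4 and 34.8 in controls, 36.5, 35.9, 39.7 and 31.5 in KO, and 29.6, 33.7, 38.2 and 42.4 in anti-Ly6G pools, and the groups overlapped. Its log2 difference from control was 0.19 for KO (limma adjusted p = 0.367) and 0.19 for anti-Ly6G (limma adjusted p = 0.215). Scap, the escort, had 97.4 ± 9.18, 102 ± 2.54 and 109 ± 20.2 (SD, n = 4 each).

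Insig1 (chr5:28071363-28078662 in GRCm38), which retains SCAP in the endoplasmic reticulum and is itself known as an SREBP target, did not pass the test. Its signal was 78.0, 49.5, 49.5 and 44.9 in controls, 41.4, 44.7, 45.8 and 35.8 in KO, and 44.3, 98.4, 47.8 and 57 in anti-Ly6G pools. The groups overlapped, with control pool 1 and anti-Ly6G pool 2 above the rest. The Insig1 log2 difference was 0.12 ± 0.22 for anti-Ly6G (limma adjusted p = 0.715) and -0.37 ± 0.22 for KO (limma adjusted p = 0.380). Without control pool 1 these were 0.29 and -0.20, and without anti-Ly6G pool 2 the antibody difference was -0.13. Insig2, the isoform abundant in liver, had 373 ± 69.9, 382 ± 48.8 and 452 ± 123 (SD, n = 4 each) with overlapping pools, and on the scale per kilobase it was at 107 in control against 17.9 for Insig1.

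Of the proteases, Mbtps1 varied little between pools. Its signal was 50.1, 50.8, 49.9 and 50.3 in controls, 45.3, 48.3, 48.5 and 47.9 in KO, and 50.3, 46.1, 51.3 and 52.2 in anti-Ly6G pools. All KO pools lay below all controls by a small amount, a log2 difference of -0.08 ± 0.06 that did not pass (limma adjusted p = 0.479). Mbtps2 had 9.67 ± 0.993, 9.58 ± 1.39 and 9.69 ± 1.14 (SD, n = 4 each), and 67.7% of its 25-base words are unique, since 2867 exon bases overlap Yy2 on the same strand.

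**Figure D3:**
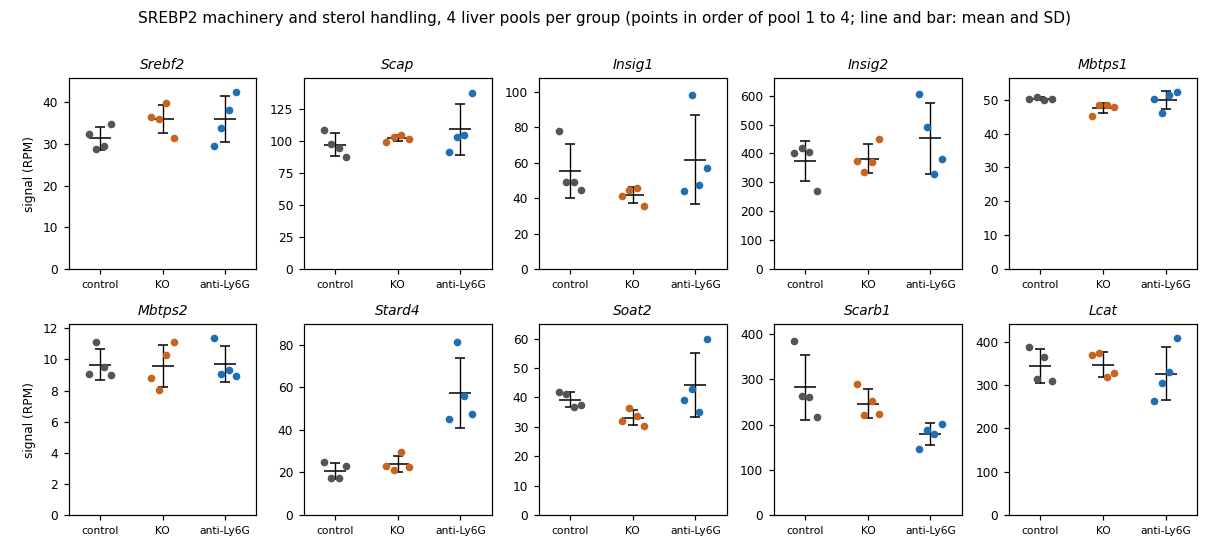
Signal (RPM, linear axis from 0) of the 6 SREBP2 machinery genes and the 4 transport and esterification genes in each of 4 pools per group, with lines and bars for the mean and SD. Stard4 in anti-Ly6G stands above all other pools and Scarb1 below, while the machinery genes overlap between anti-Ly6G and control.

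Among the 4 transport and esterification genes, 1 rose and 1 fell with the antibody. Stard4, a soluble carrier that moves sterol between membranes and a known SREBP2 target, had 24.7, 17.3, 17.5 and 23.1 in controls, 22.9, 21.3, 29.5 and 22.5 in KO, and 45.1, 81.2, 55.8 and 47.5 in anti-Ly6G pools. The anti-Ly6G pools did not overlap with either group, and KO overlapped with control. Its log2 difference was 1.43 ± 0.18 for anti-Ly6G (limma adjusted p = 0.000108) and 0.22 ± 0.18 for KO (limma adjusted p = 0.522).

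Scarb1 (chr5:125277087-125341094 in GRCm38), the receptor for selective uptake of HDL cholesterol, had 386, 263, 262 and 218 in controls, 290, 221, 252 and 224 in KO, and 146, 189, 180 and 202 in anti-Ly6G pools. Every anti-Ly6G pool lay below every other pool. The ratio of means was 0.637 and the log2 difference -0.63 ± 0.15 for anti-Ly6G (limma adjusted p = 0.00833), and it was -0.17 for KO (limma adjusted p = 0.590). Leaving out 1 pool at a time gave -0.74 to -0.47 for anti-Ly6G. Soat2, which esterifies cholesterol in hepatocytes, had 39.2 ± 2.53, 33.1 ± 2.54 and 44.2 ± 10.8 (SD, n = 4 each), with the KO pools all below the controls, though this difference did not pass (log2 -0.24 ± 0.13, limma adjusted p = 0.330). Lcat, the plasma enzyme that esterifies HDL cholesterol, had 344 ± 38.8, 347 ± 29.1 and 326 ± 60.5 (SD, n = 4 each), with overlapping groups.

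The second question was how livers with p38γ and p38δ deleted in myeloid cells differed from control. Of the 28 genes 1 rose, Nsdhl, and none fell, against 0.585% and 0.534% of all genes (1.12% in either direction). At an unadjusted limma p under 0.05 there were 9 members, against 18.9% of all genes, and edgeR called 1, DESeq2 5 and voom 3. Of all genes edgeR called 1.3%, DESeq2 4.89% and voom 6.72%. The median log2 difference was 0.42 over the 18 enzymes and 0.21 over the 28 genes, against -0.00 over all genes. In 7 enzymes every KO pool exceeded every control pool (Acat2, Hmgcs1, Idi1, Sqle, Cyp51, Nsdhl and Dhcr7), against 5.73% of all genes, and in 2 members, Mbtps1 and Soat2, every KO pool was lower, against 6.62%. Ratios of means for the 7 were 1.21 to 1.95. The Nsdhl call was lost without control pool 1, 2 or 3 or KO pool 2 or 3 (limma adjusted p of 0.055 to 0.107). Of the other mevalonate and sterol enzymes, 17 did not pass in this comparison.

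Set directly against each other, KO livers were lower than anti-Ly6G livers in 15 of the 28 genes and higher in 1, Scarb1, against 13.1% and 13.6% of all genes (26.8% in either direction). The 15 were 13 enzymes with Stard4 and Soat2, and the median log2 difference over the enzymes was -0.68. Sqle differed by -1.31 ± 0.22 (limma adjusted p = 0.00113), Stard4 by -1.21 ± 0.18 (limma adjusted p = 0.000411) and Acat2 by -1.10 ± 0.09 (limma adjusted p = 7.25e-06). Nsdhl, called in both comparisons with control, was lower in KO than in anti-Ly6G by a log2 difference of -0.64 ± 0.14 (limma adjusted p = 0.00537). In 11 of the 18 enzymes all KO pools lay below all anti-Ly6G pools. Over the 28 genes this held in 12, against 13.5% of all genes, and the reverse in 1, Scarb1, against 13.8%. The Scarb1 call was lost without KO pool 1, 3 or 4 or anti-Ly6G pool 1, 2 or 3 (limma adjusted p of 0.0522 to 0.12), and with the replicate block (0.0599). The Soat2 call was lost without KO pool 1, 3 or 4 or anti-Ly6G pool 2 or 4 (0.0659 to 0.101). It was also lost with the replicate block (0.0554), quantile normalization (0.0599) and a fit of the 2 groups alone (0.0748). The Lss call was lost without KO pool 1 or 2 or anti-Ly6G pool 2, 3 or 4 (0.0503 to 0.103), in voom (0.0603) and with the 2 groups alone (0.0594). Those of Mvk and Msmo1 were each lost without KO pool 4 and without 1 further pool, anti-Ly6G pool 2 for Mvk and KO pool 1 for Msmo1 (0.0528 to 0.0596). Dhcr7 (-0.08), Ebp (-0.08) and Hsd17b7 (-0.13) did not pass.

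The mitochondrial label allows comparisons within one background. KO pools 3 and 4 carry the same NZB label as the anti-Ly6G pools, and set against these, 10 of the 28 genes were lower and none higher, against 8.24% and 9.07% of all genes. The 10 were Acat2, Mvk, Pmvk, Fdps, Fdft1, Sqle, Cyp51, Tm7sf2, Nsdhl and Stard4. KO pools 1 and 2 carry the C57 label of the controls. In 9 members both of these pools exceeded all 4 controls, against 14.4% of all genes, and 9 did so for KO pools 3 and 4, against 15.0%. The first 9 included Mvk and Srebf2, which were not among the second, and the second included Fdps and Lss, which were not among the first. In the lower direction there were 4 for pools 1 and 2 (Insig1, Mbtps1, Mbtps2 and Soat2), against 15.8% of all genes, and 2 for pools 3 and 4 (Mbtps1 and Soat2), against 16.7%. With pools 1 and 2 alone 0 members passed the limma test (6 at an unadjusted p under 0.05), against 0.11% of all genes higher and 0.382% lower. With pools 3 and 4 alone 0 passed (7 unadjusted), against 0.178% and 0.237%. Between the pairs, the mean of KO pools 3 and 4 was above that of KO pools 1 and 2 in 13 of 18 enzymes. The share over all genes was not taken. KO pool 3 was the highest KO pool in 13 enzymes, while KO pools 1 and 4 were each the lowest in 7. Nsdhl averaged 11.5 in pools 1 and 2 and 12.6 in pools 3 and 4, Sqle 7.55 and 8.67, and Lss 14.5 and 20.2. The pairs overlapped for Sqle (7.41 and 7.70 against 10.7 and 6.60) and Nsdhl (10.2 and 12.9 against 14.2 and 11.1). They did not for Lss (14.7 and 14.2 against 21.2 and 19.1). With the label as a covariate 10 members rose with anti-Ly6G and none fell, against 4.38% and 3.87% of all genes. In that fit the label effect came only from KO pools 1 and 2 against KO pools 3 and 4. The fit takes this effect to be the same in anti-Ly6G livers, which was not tested. The differences that no longer passed were Fdps at 1.42 (limma adjusted p = 0.0503), Fdft1 at 0.60 (0.104), Msmo1 at 1.33 (0.123), Lss at 0.05 (0.889) and Scarb1 at -0.54 (0.227), with Dhcr7 also lost.

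**Figure D4:**
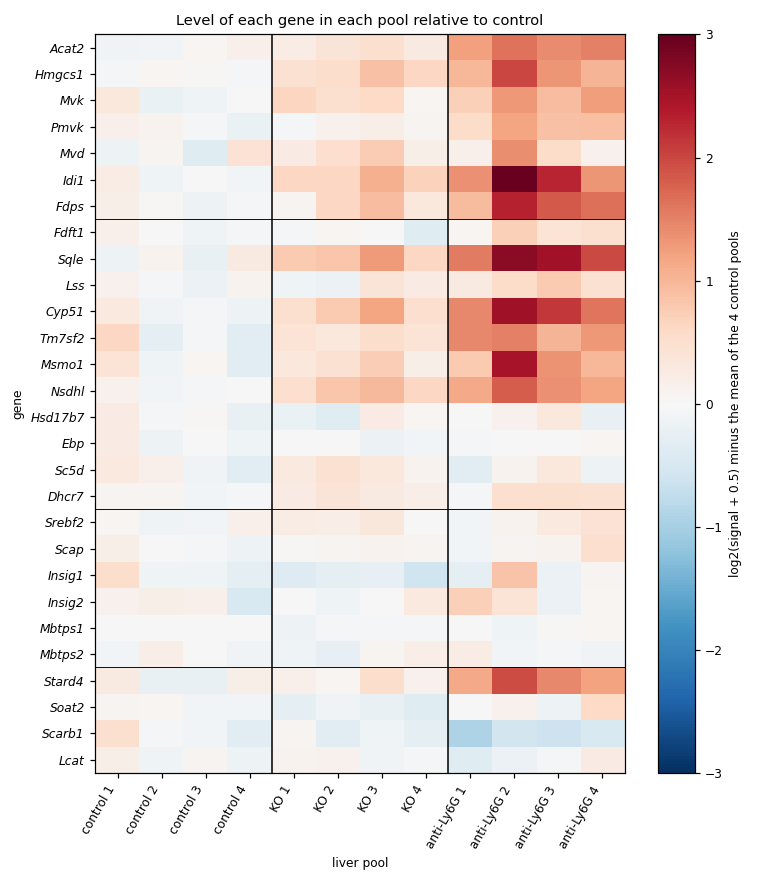
Level of each of the 28 genes in each of 12 liver pools, as log2(signal + 0.5) minus the mean of the 4 control pools. Anti-Ly6G pool 2 is the darkest column, and the enzymes that rose form red blocks through Acat2 to Nsdhl, broken by Mvd and the weakly changed Fdft1 and Lss.

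The pools of a group differed from each other across many of the enzymes at once. Anti-Ly6G pool 2 was the highest of its group in 14 of the 18 enzymes and anti-Ly6G pool 1 the lowest in 14. Over the enzymes, the median log2 difference from the control mean was 0.75, 1.46, 0.97 and 1.01 in anti-Ly6G pools 1 to 4. It was 0.26, 0.46, 0.57 and 0.22 in KO pools and 0.17, -0.05, -0.06 and -0.06 in control pools. KO pool 3 was the highest of its group in 13 enzymes and control pool 1 in 13. The coefficient of variation between pools had a median of 12.1% in controls, 15.5% in KO and 19.8% in anti-Ly6G over the enzymes, and reached 60.7% in anti-Ly6G. With anti-Ly6G pools spanning this range, leaving out 1 pool at a time moved Sqle between 2.01 and 2.40, Idi1 between 1.66 and 2.20 and Acat2 between 1.39 and 1.51 on the log2 scale.

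Other genes of sterol and lipid metabolism were read from lists of known pathway genes. With the antibody 15.1% of all genes rose and 15.3% fell, and list counts are to be read against these shares. Of 20 further genes of cholesterol metabolism, 9 rose and 3 fell with the antibody, and in KO 1 rose, against 0.585% of all genes. It was Rdh11, a retinol dehydrogenase. Its mean was 13.1 in controls, 19.3 in KO and 21.0 in anti-Ly6G, with log2 differences of 0.54 (limma adjusted p = 0.0184) and 0.66 (limma adjusted p = 0.000209). Of these 20 genes, 8 had an unadjusted limma p under 0.05 in KO, against 18.9% of all genes, and 11 had a log2 difference above 0. In KO edgeR called 1, DESeq2 2 and voom 1, against 1.3%, 4.89% and 6.72% of all genes. Tmem97, a sterol-regulated membrane protein, rose from 58.6 to 87.7 with the antibody (log2 0.58, limma adjusted p = 0.000117). Of 12 genes of sterol-dependent degradation in the endoplasmic reticulum, 4 rose and 3 fell with the antibody. Erlin1 rose from 26.9 to 48.7 (log2 0.84, limma adjusted p = 7.96e-05).

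Of 17 fatty acid genes of SREBP1, 3 rose and 3 fell with the antibody, a share near the 30.4% of all genes called. Scd1, the stearoyl-CoA desaturase, had a log2 difference of -3.34 (limma adjusted p = 0.000129) and Scd2 of -0.72 (limma adjusted p = 0.00173), whereas Me1, the malic enzyme, rose by 0.94 (limma adjusted p = 0.000169). Srebf1, which encodes SREBP1, had means of 59.4 ± 31.6 in controls, 29.3 ± 3.28 in KO and 27.1 ± 6.68 in anti-Ly6G (SD, n = 4 each). Its log2 difference was -0.89 in KO (limma adjusted p = 0.107) and -1.03 in anti-Ly6G (limma adjusted p = 0.0109). Control pools were also uneven for Scd1, with means of 611 ± 358 in controls, 320 ± 43.6 in KO and 58.4 ± 33.9 in anti-Ly6G (SD, n = 4 each). Of 10 genes of the sterol receptor LXR and its targets, 1 rose (Nr1h3, 0.50, limma adjusted p = 5.89e-05) and 5 fell with the antibody, among them Lpl, lipoprotein lipase, at -1.60 (limma adjusted p = 0.000266). Of 14 genes of the isoprenoid side branches 2 rose, Rabggtb and Rabggta, which prenylate Rab proteins, a share near the 15.1% of all genes that rose. Of 11 bile acid synthesis genes 2 rose and 3 fell, with Cyp27a1 at -0.49 (limma adjusted p = 0.00672). In KO, 0 genes of the SREBP1, LXR, isoprenoid, bile acid and degradation lists passed. At an unadjusted limma p under 0.05 there were 3, 4, 1, 3 and 4, edgeR called 0 in each, DESeq2 1, 1, 0, 2 and 0, and voom 1, 1, 0, 2 and 1. Of all genes in KO with control, 18.9% had such a p, and edgeR called 1.3%, DESeq2 4.89% and voom 6.72%.

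Markers of other cell types also differed between the anti-Ly6G and control livers. In bulk liver, fewer cells of a type and less RNA per cell cannot be told apart. Of 12 macrophage markers 5 fell with the antibody, where 15.3% of all genes fell, and their summed signal was 440 to 792 in controls, 606 to 904 in KO and 247 to 329 in anti-Ly6G pools. Of 12 neutrophil markers 4 were in the table and 3 of these fell, with sums of 12.5 to 21.4, 17.4 to 20.9 and 6.3 to 10.7. Stellate cell markers (10) fell in 6, endothelial markers (8) in 3, bile duct markers (3 of 6 present) in 2 and Kupffer cell markers (5) in 2. None of these markers was at 0 in any pool. In KO 1 of all these markers, Tagln, a smooth muscle and stellate gene, rose. The 10 stellate markers had a median log2 difference of 0.51 from control in KO. In 4 of them all 4 KO pools exceeded all controls, against 5.73% of all genes. Of these 10, 7 had an unadjusted limma p under 0.05, against 18.9% of all genes, and edgeR called 2, DESeq2 4 and voom 5. Their summed signal was 343 to 506 in controls and 454 to 561 in KO pools. The 12 macrophage markers had a median of 0.41 in KO, and 11 were above 0. In 4 of these 12 all KO pools exceeded all controls, against the same 5.73%. An unadjusted p under 0.05 was found for 4, and edgeR called 0, DESeq2 2 and voom 2. The 8 endothelial markers had a median of -0.33, and in 1 all KO pools lay below all controls, against 6.62% of all genes. Of these 8, 5 had an unadjusted p under 0.05, and edgeR called 0, DESeq2 1 and voom 1. Of all genes in KO with control, 18.9% had such a p. For the stellate, macrophage and endothelial lists the tool counts stand against 1.3% (edgeR), 4.89% (DESeq2) and 6.72% (voom) of all genes. Of the 9 hepatocyte markers none passed in any comparison by limma, with 1, 1 and 2 at an unadjusted p under 0.05 and DESeq2 calling 0, 1 and 0 in KO with control, anti-Ly6G with control and KO with anti-Ly6G. Of all genes DESeq2 called 4.89%, 32.1% and 29.1% in these comparisons. Set against anti-Ly6G, KO livers were higher in 8 of 12 macrophage, 7 of 10 stellate and 3 of 4 neutrophil markers. They were also higher in 2 of 3 bile duct and 1 of 5 Kupffer cell markers, and lower in 1 of 8 endothelial markers. Of all genes, 13.6% were higher and 13.1% lower in this comparison. The part of cell composition in the cholesterol gene differences was not tested in any of the 3 comparisons.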

How the data were processed

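RNA-seq was made from 12 liver pools. The deposited values are a normalized signal per gene from the authors, neither raw counts nor logs. The submitters' processing notes name Bowtie2 2.0.6, RSEM 1.2.3, edgeR, cutadapt 1.2.1 and GRCm38, with no roles stated. All 11791 values of every library were whole multiples of 1 read (100.0% within 0.01 of a read), which gave 13.1 to 22.3 M recovered reads. TMM factors recomputed from these reads scaled each library as the deposited signal does.

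The main test was limma 3.58.1 (trend) in R 4.3.3 on log2(signal + 0.5) over 3 groups of 4 pools, with Benjamini-Hochberg adjustment over 11791 genes and a threshold of 0.05. The filter, a mean of 1 in a group, removed 0 genes. The alternatives included edgeR 4.0.16 and DESeq2 1.42.0 on recovered reads, voom, other pseudocounts and scalings, a replicate block, the mitochondrial label as covariate, and each pool left out. Scripts were tested on simulated data. Every member was described, and up to 3 genes of lowest p per list and comparison were named. The members and lists were chosen with earlier results of these data known. Uniqueness of 25-base words and overlaps come from GENCODE vM21.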

Additional observations from a re-analysis of the deposited data

Results flagged for a closer look

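In each of 84 sets of 4 pools (28 genes in 3 groups), the gap between an extreme pool and its nearest neighbour was divided by the range and set against Dixon's critical value. Chance exceeds it in about 1 of 20 sets, and 5 sets exceeded it. In Idi1, KO pool 3 stood at 29.0 against 21.2 to 22.1 in the other KO pools (gap 0.883 of the range). In Dhcr7, anti-Ly6G pool 1 stood at 19.2 against 27.6 to 28.8 (0.868). In Insig1, control pool 1 stood at 78.0 against 44.9 to 49.5 (0.861). In Insig2, control pool 4 stood at 269 against 400 to 418 (0.88). In Mbtps2, anti-Ly6G pool 1 stood at 11.4 against 8.97 to 9.35 (0.844).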

How the results depend on the processing

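Of the 28 genes, 1 was called in KO with control, 16 in anti-Ly6G with control and 16 in KO with anti-Ly6G. Leaving out 1 pool at a time gave 0 to 1, 14 to 16 and 12 to 15 calls, and over all genes 3 to 319, 2791 to 3646 and 2367 to 3266 (132, 3580 and 3157 with all pools). Over all genes, KO with control gave 38, 3, 47 and 319 calls without control pool 1, 2, 3 or 4 and 38, 34, 23 and 87 without KO pool 1, 2, 3 or 4. For KO with control, DESeq2 called 5 members and 577 genes, and voom with sample weights 3 and 792. A fit of the 2 groups alone called 4 members and 142 genes, and quantile normalization 1 and 208. With the mitochondrial covariate 0 members and 79 genes were called, with KO pools 1 and 2 alone 0 and 58, and with KO pools 3 and 4 alone 0 and 49. For anti-Ly6G with control the covariate left 10 members and 973 genes, and for KO with anti-Ly6G the KO pools 3 and 4 alone left 10 members and 2041 genes. The cause of these shifts was not tested.

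The replicate block changed the calls of KO with control to 0 members and 20 genes, and left 14 members and 2984 genes called in KO with anti-Ly6G. The numbers were not taken to pair the pools, since deviations of the 12 same-numbered pairs correlated at -0.209 to 0.172 and those of the 36 other pairs at -0.189 to 0.241, and pools correlated best with their own number in 8 of 24 checks.

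The log2 differences whose sign changed had not passed the test with all pools. Since the label splits only the KO group, the covariate estimate of KO from control equals that of KO pools 1 and 2 alone. That of KO from anti-Ly6G equals the estimate of KO pools 3 and 4 alone, so these are not separate results. For KO with control, the shared estimate was 0.02 for Fdft1, -0.14 for Lss, 0.01 for Ebp and -0.06 for Insig2. KO pools 3 and 4 alone gave 0.15 for Hsd17b7, 0.14 for Mbtps2 and -0.09 for Lcat in that comparison. For anti-Ly6G with control, quantile normalization gave -0.01 for Ebp, and Mbtps2 was -0.00073 with DESeq2 size factors, -0.00028 in edgeR, -0.004 in DESeq2, -0.03 in voom and -0.32 with the covariate, which also gave -0.38 for Hsd17b7, 0.15 for Sc5d and 0.12 for Lcat. For KO with anti-Ly6G, edgeR gave -0.0012 for Srebf2. The shared estimate of the covariate and KO pools 3 and 4 alone was 0.09 for Hsd17b7, -0.01 for Srebf2, 0.14 for Mbtps2 and -0.00091 for Lcat.

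Leaving out 1 pool changed the sign in KO with control for Ebp (-0.11 to 0.02), Fdft1 (-0.13 to 0.01), Hsd17b7 (-0.17 to 0.03), Insig2 (-0.10 to 0.11), Lcat (-0.03 to 0.08), Lss (-0.01 to 0.18) and Mbtps2 (-0.09 to 0.06). In anti-Ly6G with control it did so for Ebp (-0.04 to 0.09), Hsd17b7 (-0.03 to 0.15), Insig1 (-0.13 to 0.29), Lcat (-0.20 to 0.01), Mbtps1 (-0.03 to 0.03), Mbtps2 (-0.07 to 0.07), Sc5d (-0.13 to 0.08) and Soat2 (-0.01 to 0.24). In KO with anti-Ly6G it did so for Mbtps2 (-0.09 to 0.06), Mvd (-0.29 to 0.14), Scap (-0.16 to 0.04) and Srebf2 (-0.08 to 0.09).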
